A study of Mus musculus with 2 samples.

Results

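The 8 genes described here encode transcription factors linked to the response of macrophages to IL-4: Klf4, Pparg, Rxra, Irf4, Egr2, Myc, Batf3 and Cebpb. They were chosen by name, and their peaks were taken as every peak of either deposited list with its summit within 50 kb of an end of the RefSeq gene. The 8 genes are among 21887 protein-coding genes. Their windows held 139 of the 240661 peaks of the IL-4 list and 70 of the 149349 peaks of the untreated list. The windows' farthest summits lay 49.0 kb from a gene end in the IL-4 list and 49.4 kb in the untreated list. The first summits beyond the limit lay at 50.7 kb and 50.5 kb in those same lists.

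DNA near PHLPP1, a protein phosphatase that acts on AKT and other kinases, was captured by CUT&Tag, in which an antibody guides a transposase to chromatin. The cells were primary mouse macrophages grown from bone marrow with M-CSF at 20 ng/ml. The IL-4 group had IL-4 at 20 ng/ml for 4 h and the untreated group had none, with 1 library in each group. Both were taken as wild type from the extraction protocol and the series design, although the treatment protocol also speaks of cells lacking Phlpp1. Neither a library of such cells nor a control antibody library was analysed here, and the labels state no strain, sex or age. With 1 library per group there was no test of any difference, and values are set side by side.

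IL-4 signals mainly through STAT6, which enters the nucleus and turns on a set of further transcription factors. KLF4 and IRF4 cooperate with this pathway in alternatively activated macrophages. PPARγ binds DNA as a heterodimer with RXRα and controls lipid handling. EGR2 and c-Myc are early factors of the same programme, C/EBPβ drives arginase expression in macrophages, and BATF3 is an AP-1 family protein best known from dendritic cells. The assay reads DNA near PHLPP1 and not RNA, so whether IL-4 raised the expression of these genes was not measured.

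Selected promoters of these genes are shown first, with the reason for each choice. They come from RefSeq promoter sequences of build GRCm38.p6, each covering 250 bp before to 50 bp after an annotated start site, 5′ to 3′ on the gene's strand. Capitals mark bases inside a peak of the IL-4 list, and no untreated peak touched any of these windows. Klf4 (chr4:55532426-55532725, minus strand) is shown because it held the strongest peak of all 8 genes. Egr2 (chr10:67537619-67537918, plus strand) is shown because an IL-4 peak reached into it. In Irf4 (chr13:30748983-30749282, plus strand) and Cebpb (chr2:167688665-167688964, plus strand) the window lay between a pair of IL-4 peaks. Batf3 (chr1:191098164-191098463, plus strand) is shown as the gene with no peak at either end.
Klf4: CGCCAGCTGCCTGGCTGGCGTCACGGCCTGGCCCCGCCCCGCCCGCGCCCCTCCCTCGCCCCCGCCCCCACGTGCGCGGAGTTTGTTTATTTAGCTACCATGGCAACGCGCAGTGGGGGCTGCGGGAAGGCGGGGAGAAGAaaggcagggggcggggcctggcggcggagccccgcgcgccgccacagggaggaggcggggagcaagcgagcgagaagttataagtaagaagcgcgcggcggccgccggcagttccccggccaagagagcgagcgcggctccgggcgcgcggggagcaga
Egr2: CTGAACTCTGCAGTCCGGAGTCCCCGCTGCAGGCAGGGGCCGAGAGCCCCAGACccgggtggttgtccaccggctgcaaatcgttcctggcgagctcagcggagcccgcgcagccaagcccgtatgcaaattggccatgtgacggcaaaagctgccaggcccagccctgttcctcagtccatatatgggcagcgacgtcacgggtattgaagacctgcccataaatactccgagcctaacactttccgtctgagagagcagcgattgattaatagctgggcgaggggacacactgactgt
Irf4: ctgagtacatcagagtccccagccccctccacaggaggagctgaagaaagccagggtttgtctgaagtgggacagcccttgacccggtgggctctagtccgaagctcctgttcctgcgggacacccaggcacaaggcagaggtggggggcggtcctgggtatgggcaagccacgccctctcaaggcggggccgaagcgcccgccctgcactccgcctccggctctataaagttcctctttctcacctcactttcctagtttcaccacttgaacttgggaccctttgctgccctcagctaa
Cebpb: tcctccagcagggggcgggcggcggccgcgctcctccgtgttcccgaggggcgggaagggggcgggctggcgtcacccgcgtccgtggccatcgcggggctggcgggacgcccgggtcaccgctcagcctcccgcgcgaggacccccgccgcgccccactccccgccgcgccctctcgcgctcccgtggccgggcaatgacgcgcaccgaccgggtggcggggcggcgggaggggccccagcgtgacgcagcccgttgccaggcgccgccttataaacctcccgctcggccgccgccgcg
Batf3: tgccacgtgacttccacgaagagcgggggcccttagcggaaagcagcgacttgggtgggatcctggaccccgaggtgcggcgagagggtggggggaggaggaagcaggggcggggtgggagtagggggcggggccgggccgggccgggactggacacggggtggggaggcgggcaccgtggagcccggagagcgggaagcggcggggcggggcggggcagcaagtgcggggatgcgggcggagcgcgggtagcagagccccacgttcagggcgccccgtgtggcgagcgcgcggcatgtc

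Peaks of the IL-4 list stood at the ends of 7 of the 8 genes, and peaks of the untreated list stood at none. A gene-end peak is one with its summit within 1 kb of either annotated end. Klf4, Pparg, Rxra, Irf4, Egr2, Myc and Cebpb had 11 such peaks between them in the IL-4 list, and Batf3 had none. Among all protein-coding genes the IL-4 list marked 49.3% at an end, and 35.5% were marked by that list alone. The untreated list marked 22.7%, and 13.8% were marked by both. At a q of at most 0.05 the count of IL-4-only genes was 1 of 8, that of Klf4, against 16.8% of all genes. With gene ends widened to 3 kb it was 4 of 8, since untreated summits lay 2.38 kb from Irf4, 1.66 kb from Myc and 2.67 kb from Cebpb. It was 5 of 8 with gene ends of 500 bp, and also with the IL-4 list cut to the length of the untreated list. The share of all genes under these 3 settings is not given here.

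The gene-end peaks were mostly small, as were the peaks of the whole IL-4 list, with a median of 4 fragments in both. Of the 11, 9 rested on at most 5 fragments at the summit and 6 on at most 4. Fragment numbers were worked out from each peak's fold enrichment and −log10 p. The untreated list holds no peak under 4 fragments and the IL-4 list none under 3, so weaker sites could not be listed. The local background was also higher in the untreated library, with a lowest value of 0.643 fragments in the IL-4 library and 0.936 in the untreated library. With peaks of at least 4 fragments only, the count of genes marked by the IL-4 list alone was 7, as in the main count. The share of all genes under this setting is not given here. The part of the background difference in the gene-end counts was not tested. Of the 11 peaks, 7 were nearest to the gene end on the start side, 3 to a 3′ end and 1 to the lower-coordinate end of Myc.

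**Figure D1:**
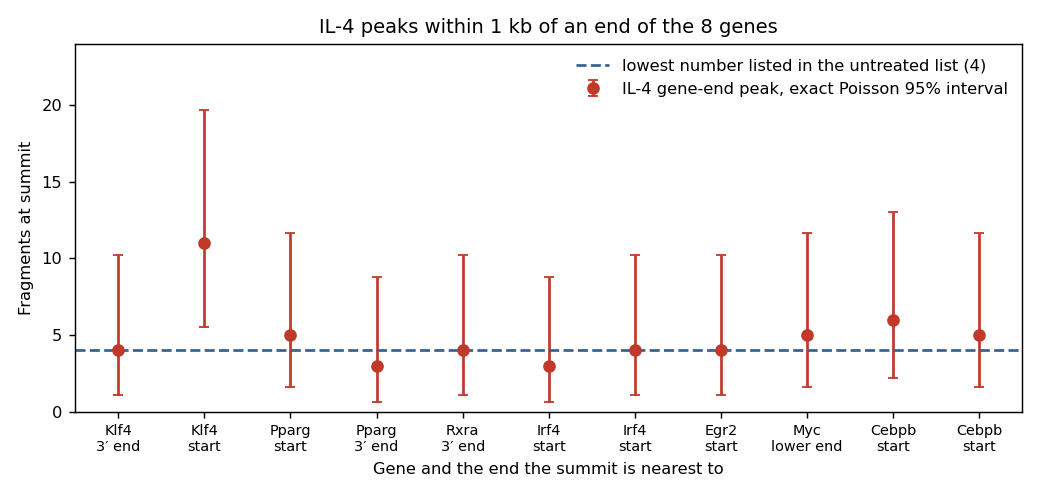
Fragments at the summit of each of the 11 IL-4 peaks within 1 kb of an end of the 8 genes, with exact Poisson 95% intervals that cover counting error only. The dashed line marks 4 fragments, the lowest number in the untreated list; the Klf4 start peak, at 11 fragments, is the single peak whose interval lies above it.

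Klf4, a zinc finger factor that works with STAT6 in macrophages, had the strongest peak around the 8 genes in either list. This IL-4 peak spanned chr4:55532585-55533079 (495 bp), with its summit 212 bp upstream of the start site. It held 11 fragments (exact Poisson 95% interval 5.49 to 19.7), a fold enrichment of 5.71 and a −log10 q of 4.32. The summit was also 23 bp from an end of Gm12506, a lncRNA gene, so the peak does not belong to Klf4 alone. The untreated list had no peak within 19.8 kb of Klf4. The peak covered 141 of the 300 bases printed above. Smaller IL-4 peaks lay 1335 bp inside the gene, with 5 fragments, and 307 bp past its 3′ end, with 4.

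Irf4 and Cebpb each had a pair of IL-4 peaks on the 2 sides of the start site. Irf4 encodes an interferon regulatory factor needed for alternative activation. Its IL-4 peaks had summits 334 bp upstream and 216 bp downstream of the start, with 3 and 4 fragments. At Cebpb, the gene of the leucine zipper factor C/EBPβ, the summits lay 474 bp upstream and 239 bp downstream, with 6 and 5 fragments. Their −log10 q values were 0.393 and 0.753 at Irf4 and 1.05 and 0.753 at Cebpb, all short of a q of 0.05. The nearest untreated summits lay past the 3′ ends of both genes.

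Egr2, a zinc finger factor of early gene responses, had IL-4 peaks among its several start sites. The RefSeq table lists 5 starts for it, and the farthest upstream annotated end lies well before the cluster of the other starts. An IL-4 peak at chr10:67537534-67537672 had its summit 80 bp past the second of these starts, with 6 fragments and a −log10 q of 1.40. Its summit was 3177 bp from the nearer gene end, so it is not among the 11 gene-end peaks. A further IL-4 peak of 5 fragments lay 2426 bp inside the gene, and the gene-end peak proper, of 4 fragments, lay 991 bp upstream of the outer end. No untreated summit lay inside Egr2 or within 6.83 kb of its ends.

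Myc, encoding a growth-promoting helix-loop-helix factor, had 4 IL-4 summits from 227 bp before its lower-coordinate end to its upper end. The first, at chr15:61985032-61985274, held 5 fragments at a −log10 q of 1.22. The others held 5, 4 and 3 fragments inside the gene. The untreated list had no summit inside Myc, and its nearest peak, of 5 fragments, lay 1.66 kb past the upper end. Myc was not matched in the promoter table.

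Pparg and Rxra encode the partners of a nuclear receptor heterodimer. The IL-4 list placed a peak of 5 fragments at chr6:115361343-115361778, with its summit 344 bp past the first of the 3 listed starts of Pparg. A peak of 3 fragments lay 576 bp past the 3′ end. At the third start, far inside the gene, no peak of either list lay within 1 kb. Rxra had no summit within 1 kb of either of its 2 listed starts, and its gene-end peak, of 4 fragments, lay 342 bp inside the 3′ end. The closest summits to the outer start both lay inside the gene, at 3054 bp for IL-4, with 3 fragments, and at 3209 bp for untreated, with 6.

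Batf3 differed from the other 7 in having no summit of either list within 1 kb of an end. Its nearest IL-4 summit lay 2215 bp past the 3′ end, with 6 fragments, and its nearest untreated summit 1303 bp past the same end, with 5. Counted at annotated start sites in place of either end, 5 of the 7 genes in the promoter table had an IL-4-only peak within 1 kb. These were Klf4, Pparg, Irf4, Egr2 and Cebpb. The same class held 34% of the 17492 protein-coding genes with a listed start. No untreated peak stood within 1 kb of a start of these 7 genes.

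The promoters of the 7 listed genes were rich in G and C. Their 14 listed promoter windows, 3 of which overlap heavily at Egr2, had a median GC content of 61.8% and 21.5 CpG dinucleotides, against 52.7% and 7 over all 32851 promoters of the table. The Klf4 window had a GC content of 74.3% with 40 CpG, and the Batf3 window, without a peak, 75.7% with 34. The outer Rxra window, also without one, had 83.0% with 55. The KLF/SP box GGGCGGGG, searched on both strands, stood in 5 of the 14 windows, each of another gene, and in 17.6% of all promoters. In the Klf4 window 3 of its 4 matches lay inside the IL-4 peak, beginning at positions −219, −214 and −191 from the start site, the first pair overlapping. The E-box CACGTG, bound by Myc family proteins, matched once at position −182, also inside the peak. E-boxes stood in 3 of the 14 windows, of Klf4, Egr2 and Batf3, and in 7.15% of all promoters.

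Counts for motifs of the IL-4 pathway were close to the share over all promoters. The STAT6 motif with a spacer of 4 bases matched in 0 of the 14 windows and in 6.95% of all promoters. The STAT motif TTCNNNGAA matched in 1 of the 14 windows, at position −239 of Batf3, and in 8.30% of all promoters. The C/EBP motif TTGCNNAA matched in 1 of the 14, with 2 matches before the third start of Pparg, and in 10.8% of all promoters. The AP-1 motif TGANTCA, the PU.1 motif GAGGAAGT, the EGR motif GCGTGGGCG, the NRF1 motif and the PPAR-RXR direct repeat matched in none, against 7.81%, 3.20%, 0.612%, 0.971% and 0.0396% of all promoters. TATAAA stood in 3 of the 14, of Irf4, Cebpb and Pparg, and in 13.6% of all promoters, and CCAAT in 5 of the 14, of Pparg and Egr2, and in 37.4%. The match counts cover 300 bp per start only.

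**Figure D2:**
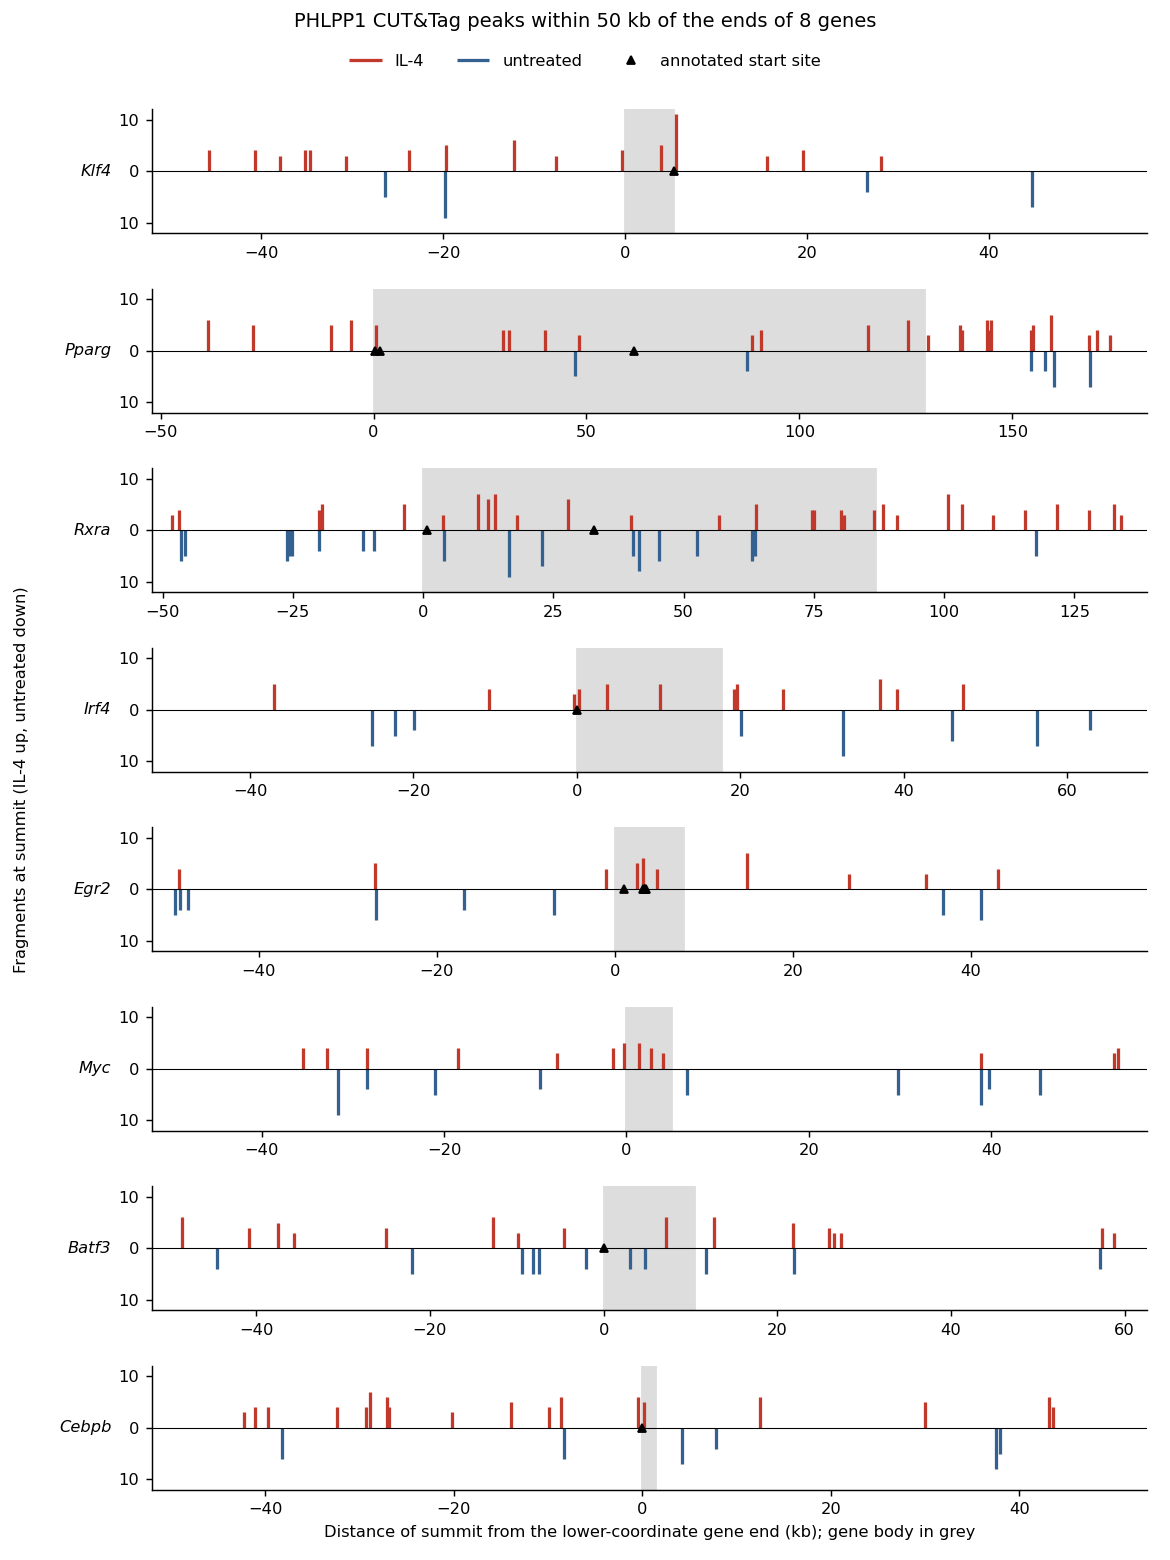
Summits of listed peaks within 50 kb of the ends of each gene, by distance in kb from the lower-coordinate gene end; line height gives fragments at the summit, IL-4 upwards and untreated downwards. Grey marks the gene body and triangles the listed start sites; Klf4 is read from right to left, and the bodies of Klf4, Irf4, Egr2, Myc and Cebpb hold IL-4 summits only.

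Inside the genes, 5 of the 8 had summits of the IL-4 list and none of the untreated list: Irf4, Egr2 and Myc with 3 each and Klf4 and Cebpb with 1 each. Of all protein-coding genes 21.1% had this pattern. The long genes Pparg and Rxra had summits of both lists, as did Batf3. Rxra was the gene with the most untreated peaks inside it, 9, of which the strongest, at chr2:27692881-27693094, held 9 fragments (4.12 to 17.1) at a −log10 q of 2.08. Within 50 kb of an end, Rxra held 14 IL-4 peaks inside the gene, of which the strongest by −log10 q had 6 fragments at a −log10 q of 1.84.

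Over the whole windows every one of the 8 genes had more IL-4 than untreated peaks, as had 85.1% of all protein-coding genes. Pparg had 25 IL-4 peaks and 6 untreated peaks, Klf4 had 16 and 4, and Cebpb had 18 and 6. In these genes the ratios were 4.17, 4.00 and 3. Rxra had 29 IL-4 and 18 untreated peaks, Batf3 had 16 and 11, Irf4 had 12 and 8, Myc had 13 and 9, and Egr2 had 10 and 8. Their ratios, from 1.25 to 1.61, were at or below the 1.61 by which the whole IL-4 list is longer. The 8 genes thus fell into 3 with a ratio of at least 3 and 5 with at most 1.61.

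The median log2 ratio, with 1 added to each count, was 0.59 over the 8 genes and 0.81 over all protein-coding genes. Ranked by this ratio, Pparg stood above 92.3% of all genes and Cebpb above 81.6%, with Klf4 between them. Egr2, at 0.29, stood above 22.8%. In total the ratio over the 8 genes was 1.99. It was 1.23, with 86 IL-4 and 70 untreated peaks, when the IL-4 list was cut to the length of the untreated list. The median gene of the 8 had 16 IL-4 and 8 untreated peaks. Over all protein-coding genes the medians were 14 and 7, in the same proportion. The total of 1.99 sums over genes with unlike ratios, and no such total over all genes is given beside it. Peak density per 100 kb of window was highest for Cebpb in the IL-4 list, at 17.7, and for Batf3 in the untreated list, at 9.95.

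**Figure D3:**
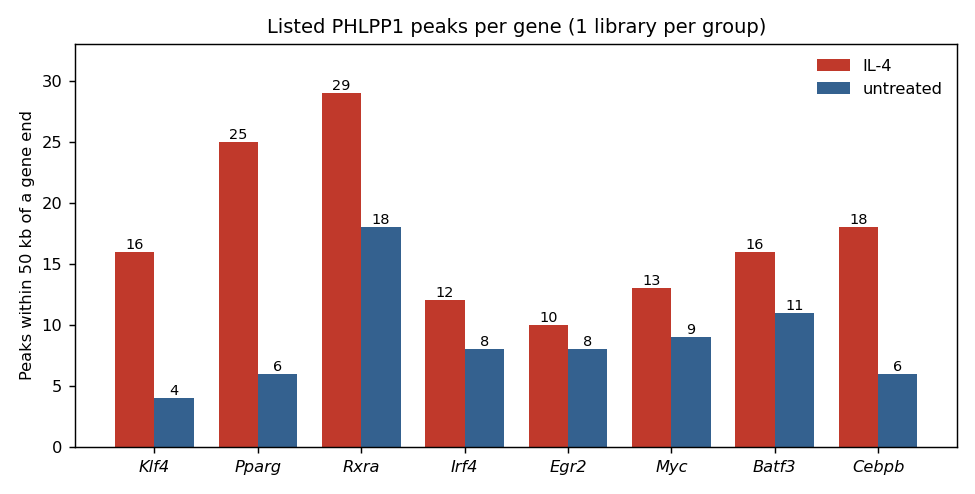
Number of listed peaks with a summit within 50 kb of an end of each gene, IL-4 left and untreated right, 1 library per group and so without error bars. Pparg, Klf4 and Cebpb show the widest gaps, with 25 and 6, 16 and 4, and 18 and 6 peaks.

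By distance, the 2 lists differed most in proportion within 1 kb of the gene ends, as they did over all protein-coding genes. Within 1 kb of an end the 8 genes had 11 IL-4 peaks and 0 untreated peaks, and from 1 to 5 kb they had 19 and 8. From 5 to 10 kb they had 13 and 8, from 10 to 25 kb 37 and 17, and from 25 to 50 kb 59 and 37. Per gene, the IL-4 mean within 1 kb was 1.38 for the 8 genes, against 0.663 for all protein-coding genes. The untreated mean there was 0 against 0.261. From 5 to 10 kb both sets were close, with IL-4 means of 1.63 and 1.57 and untreated means of 1.00 and 0.856.

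**Figure D4:**
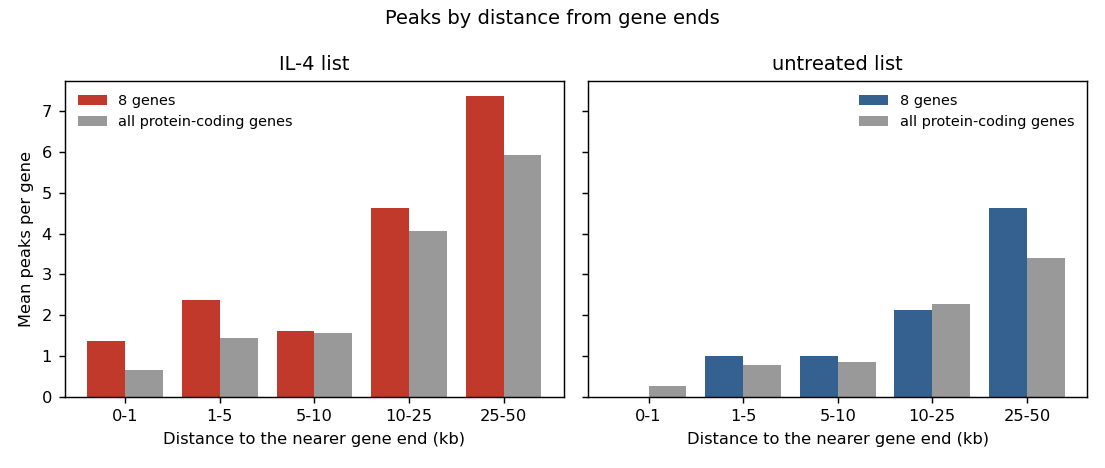
Mean number of peaks per gene in 5 bands of distance to the nearer gene end (kb; bands of unequal width), for the 8 genes in colour and all protein-coding genes in grey, in the IL-4 list (left) and the untreated list (right). In the band nearest the ends the 8 genes average 1.38 IL-4 peaks and 0 untreated peaks.

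Which list held the strongest peak, by −log10 q, varied between the genes. The IL-4 value was the higher at 5 of 8: Klf4 with 4.32 against 2.70, Egr2 with 2.58 against 1.11, Rxra with 2.58 against 2.08, Pparg with 2.31 against 1.57, and Batf3 with 1.84 against 0.737. The untreated value was the higher at the other 3, with 1.26 for IL-4 against 2.70 at Myc, 1.81 against 2.61 at Irf4 and 1.84 against 2.08 at Cebpb. In fragments these peaks had a median of 6.5 for IL-4 and 8.5 for untreated cells, without scaling for the higher untreated background. By fragments the IL-4 peak was the higher at Klf4, Egr2 and Batf3, level at Pparg and the lower at Rxra, Myc, Irf4 and Cebpb. The −log10 q values of the 2 lists are not on the same scale. At the lowest background of each list, 7 fragments gave 2.58 with IL-4 and 1.57 untreated. The share of all genes with the higher value in the IL-4 list is not given here. Myc had an untreated peak of 9 fragments (4.12 to 17.1) at chr15:61953635-61953840, 31.6 kb before its lower end, at a −log10 q of 2.70. No IL-4 peak overlapped it. Irf4 had one of 9 fragments 14.9 kb past its 3′ end, at 2.61, also with no IL-4 overlap. Cebpb had one of 8 fragments 36.1 kb past its 3′ end, at 2.08. At Rxra the strongest IL-4 peak, of 7 fragments and a −log10 q of 2.58, lay 13.9 kb past the 3′ end, and at Pparg it had 7 fragments and 2.31 and lay 29.5 kb past it.

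Few sites near the genes stood in both lists. Of the 139 IL-4 peaks 9 (6.47%) overlapped an untreated peak, against 5.42% of all IL-4 peaks, and of the 70 untreated peaks 9 (12.9%) overlapped an IL-4 peak, against 8.73%. The count was 5 where an overlap had to cover at least 50% of either peak, 17 where summits within 500 bp counted, and 0 at a q of at most 0.05. That last setting left only 20 IL-4 and 13 untreated peaks near the genes. The shares of all peaks under these other rules are not given here. The shared sites lay at least 3.81 kb from a gene end, and Rxra, Myc and Batf3 had 2 each. The one with the most fragments lay 19.7 kb past the 3′ end of Klf4, with 5 IL-4 fragments and 9 untreated fragments. The deposited fold enrichments there were 3.39 with IL-4 and 5.17 untreated. Irf4 and Cebpb had no shared site.

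Peaks at a q of at most 0.05 made up 20 of the 139 IL-4 peaks (14.4%) and 13 of the 70 untreated peaks (18.6%), against 12.5% and 14.6% of all peaks of those lists. None reached a −log10 q of 5. Myc had no IL-4 peak at this threshold, and Egr2 and Batf3 had no untreated one. Of the 139 IL-4 peaks 84 held at most 4 fragments, as did 21 of the 70 untreated peaks. Only the IL-4 list could hold peaks of 3 fragments, so these counts are not alike. With at least 4 fragments in both lists, 106 IL-4 and 70 untreated peaks remained, a ratio of 1.51. At a q of at most 0.05 the ratio was 1.54. Whole-list ratios at these settings are not given here. The medians near the genes, 4 fragments for IL-4 and 5 for untreated, equalled those of the whole lists.

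Several partners and relatives of the 8 factors had gene-end peaks with more fragments than the Klf4 peak. A list of 36 genes covered STAT6, other nuclear receptors, the KLF, IRF, EGR, AP-1 and C/EBP families, PU.1, the NAB corepressors and the MYC-MAX network. Of the 36, 21 (58.3%) were marked at an end by the IL-4 list alone, 9 by both, 2 by the untreated list alone and 4 by neither list. At a q of at most 0.05, 17 (47.2%) were IL-4-only, against 1 of the 8 factors and 16.8% of all genes. Stat6 and Nab2, IL-4-only in both counts, shared their strongest gene-end peak, of 9 fragments at a −log10 q of 2.90. The strongest IL-4 gene-end peaks of Ddit3 and Nr1h3 were shared with Mbd6 and Madd, genes outside the list. The median log2 ratio of peaks within 50 kb was 1.13 for the 36 genes, against 0.59 for the 8 factors.

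Klf3, encoding a transcriptional repressor, had the strongest of these peaks by −log10 q, 15 fragments at 8.53, which it shares with Gm38457. Klf13 had 19 fragments at 8.18. Mnt and Mxd1, antagonists of c-Myc, had 21 and 12 IL-4 fragments, at 7.51 and 6.01. Mnt also had an untreated peak of 4 fragments at the same end. Jun, of the AP-1 family, had 16 IL-4 fragments at 6.20 and 6 untreated fragments at 1.11, at overlapping sites. Nr1h2, encoding LXRβ, had 12 at 4.92 in a peak shared with Pold1. In the untreated list the highest values were those of Max, the binding partner of c-Myc, with 9 fragments at 2.70, and Jund with 7 at 1.57. Jun followed at 1.11, level with Nr1h3 and Ppara.

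**Figure D5:**
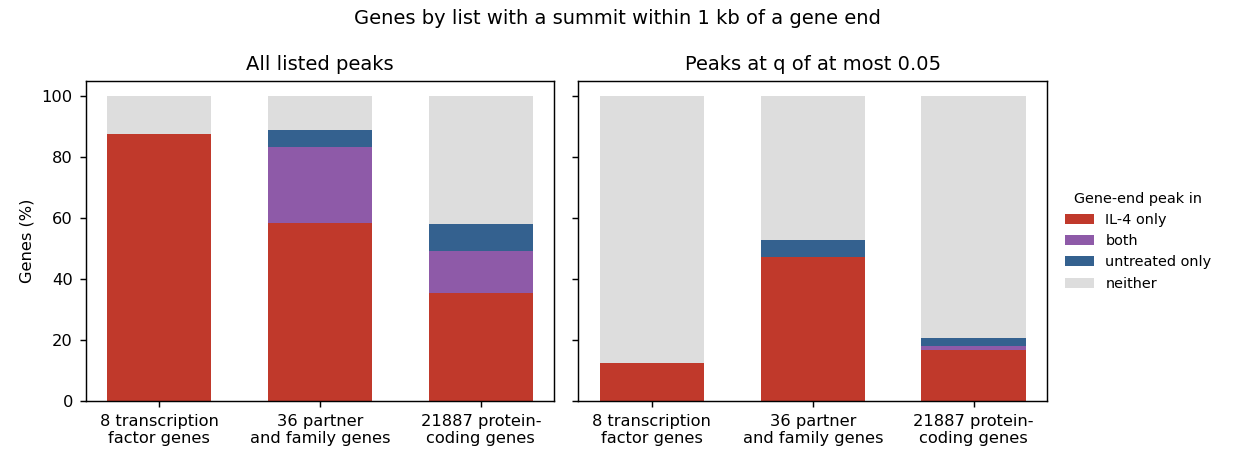
Share of genes (%) by the list that places a summit within 1 kb of an end (IL-4 alone, both, untreated alone, none), over all listed peaks (left) and at a q of at most 0.05 (right). The IL-4-only share of the 8 factors is 87.5% over all peaks and 12.5% at the stricter threshold, against 58.3% and 47.2% for the 36 partner and family genes and 35.5% and 16.8% for all genes.

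Over 10 numbers per gene, the peaks of each of 2 libraries in 5 distance bands, Ecsit, Dnaaf1 and Slc9c1 were nearest to the mean of the 8 genes. Euclidean distances on the square-root scale were 0.471, 0.522 and 0.582, whereas the 8 genes themselves lay 1.28 to 2.32 from their mean. Marker genes of the labelled cell type were near the share over all genes. An IL-4 gene-end peak stood at 6 of 10 macrophage markers, 3 of 5 T cell markers and 2 of 5 each for B cell and neutrophil markers, against 49.3% of all genes. Csf1r, Adgre1, Itgam and Lyz2 had no gene-end peak. At a q of at most 0.05 the IL-4-only count was 2 of 10 macrophage markers and 0 of 5 each for the other types, against 16.8% of all genes. The assay does not measure RNA, and the identity of the cells was not tested by these counts.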

How the data were processed

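Each library has its own peak list, deposited by the authors in narrowPeak layout. Tools listed without roles in the submitters' processing notes are MACS2 2.2.7.1, Bowtie 0.12.8 and DiffBind, with build mm10. A control, the handling of duplicates and read totals were not given in the sources used here. The deposited score equals −log10 p times 10 with decimals dropped. The deposited fold is a linear ratio of summit to local background, with the same constant added to both before division. It is therefore lower than the plain ratio. The Klf4 start peak of the IL-4 list, for example, had 11 fragments, a local background of 1.10 and a fold of 5.71. Each peak's −log10 q and −log10 p, as deposited, are the caller's own, used here to describe and filter peaks.

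Intervals with several summits (654 in the IL-4 list, 203 in the untreated list) were reduced to that with the highest −log10 q. Fragments at a summit were the whole number matching the deposited fold and −log10 p within 0.01, found for 100% of entries; the solver and the counting were tested on simulated data. Poisson intervals cover counting error only, and PCR copies are not independent molecules. Gene ends and promoters came from RefSeq GRCm38.p6, the build of mm10; the promoter table matched 7 of the 8 genes. Overlap meant at least 1 bp. All 8 genes are named, with the 6 strongest IL-4 and 3 strongest untreated gene-end peaks of the partner list. The genes, lists, motifs and thresholds were chosen with earlier results of these data known. Python 3.11.15, pandas 2.3.3 and scipy 1.17.1 were used.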

Additional observations from a re-analysis of the deposited data

How the results depend on the processing

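No paired analysis was possible because each group had 1 library, so nothing could be left out or blocked. The ratio of IL-4 to untreated peaks around the 8 genes, 1.99, was 1.23 with lists of equal length and 2.6875 within 10 kb. Both fell outside a binomial 95% interval of 1.48 to 2.686. The ratio was 1.51 with at least 4 fragments and 1.54 at a q of at most 0.05, inside the interval. The interval treats peaks as independent draws and covers counting error only. The number of genes marked at an end by the IL-4 list alone, 7, was 1 at a q of at most 0.05 and 4 with gene ends of 3 kb. It was 5 with lists of equal length and 5 with gene ends of 500 bp. The count of 9 IL-4 peaks that overlap an untreated peak was 0 at that q, where only 20 IL-4 peaks remained. It was 5 with an overlap of 50% of either peak and 17 with summits within 500 bp. The shares of all peaks under these settings are not given. Under these alternatives 25 summary values, among them the gene counts of 5, stayed within that interval or within 1.5 times. Each alternative kept the strongest peak of any gene it left with a peak. The 61 values for the strongest peak of a gene were therefore unchanged by construction and give no check. Their medians, among the 25, could shift only through genes left without a peak. At a q of at most 0.05, 7 genes had an IL-4 peak to measure and 6 an untreated one. Start sites and the removal of peaks nearer to another gene were added after the data were seen. Few fragments per peak limit every value here.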

Other observations

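Some peaks in the windows lay closer to other genes. Of the 139 IL-4 peaks 31, and of the 70 untreated peaks 19, had a summit nearer to an end of another protein-coding gene. Without them 108 IL-4 and 51 untreated peaks remained, a ratio of 2.12. The strongest IL-4 peak in the Egr2 window, of 7 fragments at a −log10 q of 2.58, lay 326 bp from an end of Ado, which encodes a thiol dioxygenase. In the Cebpb window, IL-4 peaks of 6 and 4 fragments lay 251 and 528 bp from an end of Tmem189. In the Irf4 window an IL-4 peak of 5 fragments lay 917 bp from an end of Dusp22, a phosphatase gene. In the Batf3 window an IL-4 peak of 3 fragments lay 260 bp from an end of Nsl1, a kinetochore gene. In the Myc window an IL-4 peak of 3 fragments lay 852 bp from an end of the lncRNA gene Pvt1. The strongest IL-4 peak in the Pparg window lay 393 bp from an end of the lncRNA gene Gm36301. An untreated peak of 4 fragments lay 858 bp from an end of the same gene.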
